A study of Mus musculus with 12 samples.

Results

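Skeletal muscle of B6.CAST-17 congenic mice was compared with skeletal muscle of wild type B6 mice on 6 of the 12 arrays of the study, 3 arrays per strain. The arrays were chosen by their titles, which name the tissue and the strain. The congenic mice were homozygous males with DNA from CAST, a wild-derived strain, on chromosome 17 of an otherwise B6 genome, and the wild type mice were B6 males without it. Both groups were untreated as far as the labels say. The labels do not give the age of the mice, the muscle that was sampled or the ends of the CAST segment. The series text describes the mice of a strain as biological replicates. The series title speaks of raised physical activity and carbohydrate preference in a sub-congenic strain, so the comparison asks which muscle transcripts differ in a line with that behaviour. The congenic strain is 1 line, and its mice share every allele that differs from B6.

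In a congenic strain, a gene inside the introgressed segment can differ in expression because its own alleles differ, whereas a gene elsewhere in the genome carries the background allele in both strains. Mouse chromosome 17 holds the major histocompatibility complex, named H2, whose class I genes present peptides on almost every nucleated cell and whose class II genes present them on macrophages, dendritic cells and B cells. B6 mice are known to lack the class II E molecule because their H2-Ea gene is not expressed. In muscle, gene expression is dominated by contractile proteins and by the enzymes of glycogen breakdown, glycolysis and mitochondrial respiration, and exercise is known to act on regulators of mitochondrial content.

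Each array gave a value for 33012 probes, which the authors deposited on a log scale taken here as log2. The 6 muscle arrays ranged from 5.63 to 21.13 with a median of 9.12, and values of the same rank lay within 0.0025 of each other on all of them, so that each array holds 1 shared distribution of values and the brightest probes can only exchange its top values. A gene symbol was given for 14411 probes, which stood for 13837 genes. For a gene with several probes, the probe that read highest on average across these arrays was used. Skeletal muscle identity was checked on 10 marker genes, among them Acta1, Ckm and Ttn, whose median lay between 19.77 and 20.11 on every array. No detection calls were used, so a low value cannot be told from background, and a fold from such a value is only a ratio of deposited intensities.

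The congenic arrays held a library that stood apart. On congenic array 3, 420 of 4785 bright probes lay over 1 log2 unit below all 5 other arrays (8.78%), against 0.0209% to 0.251% of the bright probes on the other arrays. Its Spearman correlations with the other muscle arrays ran from 0.796 to 0.816, and all other pairs of muscle arrays lay between 0.822 and 0.862. Pancreatic genes, picked after their values were seen, were high on the same array: the trypsinogen gene Prss2 read 14.78 there and 7.98 to 10.40 elsewhere, and the elastase gene Cela3b read 14.39 against 7.59 to 10.22. On wild type array 1 the brown fat gene Ucp1 read 16.95, against 8.51 to 10.65 on the other 5 arrays, and Elovl3 read 11.79 against 7.70 to 8.17. The part of these differences in the results was not tested. Values without congenic array 3 are given beside most list medians and for some of the genes whose reading on that array was far from the others. A list or gene given without such a value can also move with that array.

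Of all probes, 6 passed an adjusted p of 0.05, and the 4 that have a gene name all lie on chromosome 17. H2-Ea and Atp6v0e rose in congenic muscle, and Taf11 and Pla2g7 fell. The other 2 have no gene name in the annotation used here, and both fell. The fit was limma's moderated test over all probes with Benjamini-Hochberg adjustment. The 6 probes are 0.0182% of those tested, with 2 higher (0.00606%) and 4 lower (0.0121%), and the 4 genes are 0.0289% of the genes. Without congenic array 3, 8 probes passed: these 6 and 2 more without a gene name.

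H2-Ea, which encodes an alpha chain of class II (that of the E molecule), read 13.06, 12.84 and 11.93 in the congenic mice and 7.19, 7.41 and 7.31 in the wild type mice. All congenic values lay more than 4 log2 units above the highest wild type value. The means were 12.61 ± 0.60 (SD, n = 3) and 7.31 ± 0.11 (SD, n = 3). H2-Ea rose by 5.31 on the log2 scale (95% interval 4.40 to 6.22), a ratio of 39.6 (limma, adjusted p = 0.00194). The call held with each array left out in turn (limma, adjusted p 0.00151 to 0.0386). It ended when values under the 20th percentile of each array were raised to that percentile, which gave a difference of 4.59 (limma, adjusted p = 0.149). In the RefSeq gene table of the B6 reference, H2-Ea is a transcribed pseudogene.

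Promoter sequences are shown for the class II genes next to H2-Ea and for the other genes that passed, because all of these lie on the chromosome that differs between the strains. They are the 250 bases before the annotated start in RefSeq for the mouse assembly GRCm38.p6, which is the B6 reference allele, and not the CAST allele. Capitals mark the motifs searched on both strands, which share no bases in these windows: the Y box CTGATTGG of class II promoters (found in 3.83% of 32851 such windows), the cAMP response element TGACGTCA (1.55%) and the GC box GGGCGG (32.7%). H2-Aa lies at chr17:34287824-34288073 on the minus strand, and H2-Eb1 at chr17:34305617-34305866 on the plus strand.
H2-Aa: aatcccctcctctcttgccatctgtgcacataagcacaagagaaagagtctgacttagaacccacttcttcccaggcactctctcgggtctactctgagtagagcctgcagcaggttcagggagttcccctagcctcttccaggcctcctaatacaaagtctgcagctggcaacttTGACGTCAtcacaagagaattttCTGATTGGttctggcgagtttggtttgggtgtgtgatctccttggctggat
H2-Eb1: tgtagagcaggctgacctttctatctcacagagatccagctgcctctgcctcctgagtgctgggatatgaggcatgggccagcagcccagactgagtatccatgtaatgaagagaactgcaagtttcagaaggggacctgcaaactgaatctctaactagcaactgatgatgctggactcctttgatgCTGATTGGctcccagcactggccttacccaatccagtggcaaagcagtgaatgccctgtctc
Both class II windows hold the Y box, 51 bases before the start of H2-Aa and 62 bases before that of H2-Eb1, and H2-Aa also holds the cAMP response element.

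Taf11 has 2 annotated starts, with windows at chr17:27907745-27907994 and chr17:27909243-27909492, both on the minus strand. Atp6v0e lies at chr17:26676146-26676395 and Pla2g7 at chr17:43568201-43568450, both on the plus strand.
Taf11, start 1: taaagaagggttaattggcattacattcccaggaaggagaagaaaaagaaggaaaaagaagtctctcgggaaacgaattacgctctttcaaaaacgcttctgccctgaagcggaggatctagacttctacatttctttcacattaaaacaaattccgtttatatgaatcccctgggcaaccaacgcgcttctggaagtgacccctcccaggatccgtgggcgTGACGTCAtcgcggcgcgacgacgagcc
Taf11, start 2: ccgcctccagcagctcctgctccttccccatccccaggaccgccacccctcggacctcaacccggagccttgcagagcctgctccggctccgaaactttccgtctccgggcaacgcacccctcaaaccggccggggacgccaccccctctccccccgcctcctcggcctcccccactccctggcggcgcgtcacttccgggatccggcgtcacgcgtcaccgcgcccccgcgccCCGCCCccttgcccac
Atp6v0e: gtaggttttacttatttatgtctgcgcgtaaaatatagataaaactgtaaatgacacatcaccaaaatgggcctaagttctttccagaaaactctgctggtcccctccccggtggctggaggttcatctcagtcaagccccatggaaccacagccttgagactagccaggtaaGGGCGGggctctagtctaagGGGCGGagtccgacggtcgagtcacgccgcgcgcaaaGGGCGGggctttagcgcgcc
Pla2g7: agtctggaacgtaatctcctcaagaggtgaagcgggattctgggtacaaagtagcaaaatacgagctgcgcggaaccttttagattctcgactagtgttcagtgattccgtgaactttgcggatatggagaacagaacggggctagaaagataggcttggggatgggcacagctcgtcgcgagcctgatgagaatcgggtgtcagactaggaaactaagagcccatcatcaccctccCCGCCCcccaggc
Start 1 of Taf11 holds a cAMP response element 28 bases before the start, and start 2 a GC box at 16 bases. Atp6v0e holds 3 GC boxes, at 77, 57 and 20 bases, and Pla2g7 holds 1 at 13 bases. A match is a run of letters in the reference and says nothing of what binds there.

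Among the other class II genes, none passed limma's test, and they did not share a direction. H2-Aa, the alpha chain of the class II A molecule, read 12.80, 12.78 and 12.59 in congenic muscle and 14.10, 13.23 and 13.59 in wild type muscle, a difference of -0.92. H2-Eb1, the beta chain that pairs with the product of H2-Ea, read 16.40, 16.34 and 16.27 against 16.09, 15.70 and 15.88, a difference of 0.45. The groups did not overlap for either gene. H2-Ab1, the beta chain of the A molecule, overlapped between strains and differed by 0.25. Cd74, the invariant chain that escorts class II molecules and is not on chromosome 17, differed by 0.52 and H2-DMa, which loads peptide, by 0.67 (0.44 without congenic array 3). Ciita, the master regulator of class II transcription, differed by -0.48. Over the 9 class II genes measured, 6 differences were positive, 1 gene passed, 5 had an unadjusted p under 0.05 and the median was 0.45, or 0.36 without congenic array 3. Over all genes, 53.4% of differences were positive, 5.07% of genes had such a p (3.25% with higher and 1.82% with lower congenic values) and the median was 0.03.

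Class II genes are read in antigen-presenting cells, whose markers are given beside them. All 8 macrophage markers measured had a positive difference, with a median of 0.65, against 53.4% positive over all genes. An unadjusted p under 0.05 was found for 5, against 3.25% of all genes with higher congenic values. The summed level of the macrophage markers is given as log2 of the sum of linear values. It ran from 18.14 to 18.58 in the congenic arrays and from 17.46 to 17.99 in the wild type arrays. The dendritic cell markers summed to 12.55 to 12.80 against 12.18 to 12.63, and the B cell markers to 12.38 to 12.48 against 12.21 to 12.48. The part of the cell makeup in the H2-Ea difference was not tested. In whole muscle, fewer cells of a type and less RNA per cell cannot be told apart.

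Taf11, a subunit of the TFIID complex that helps RNA polymerase II to start transcription, read 11.77, 12.30 and 12.86 in congenic muscle and 14.92, 14.96 and 15.16 in wild type muscle. The groups lay over 2 log2 units apart. Taf11 fell by 2.70 on the log2 scale (95% interval -3.30 to -2.10), a ratio of 6.51 (limma, adjusted p = 0.0124). The call held when congenic array 1 or 3 was left out and was lost when congenic array 2 or any wild type array was left out (limma, adjusted p 0.000723 to 0.177 over the 6 fits). Of the 8 TFIID subunits measured, Taf11 alone passed, and it was also the only one with an unadjusted p under 0.05. The next in order of p were Taf10, with a difference of 0.46 (0.18 without congenic array 3), and Taf13, the known partner of Taf11, with a difference of -0.65. Taf13 read 14.03, 14.27 and 12.06 in congenic muscle and 13.90, 14.15 and 14.27 in wild type muscle, so its difference rests on congenic array 3, without which it was 0.045. The median of the 8 was 0.14, or 0.06 without that array.

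Atp6v0e, a small membrane subunit of the vacuolar proton pump that acidifies lysosomes, read 16.43, 16.42 and 16.38 in congenic muscle and 14.96, 14.44 and 14.42 in wild type muscle. The congenic values spread over less than 0.1 log2 units. Atp6v0e rose by 1.80 (95% interval 1.39 to 2.21), a ratio of 3.49 (limma, adjusted p = 0.0126). The call held without congenic array 3 or wild type array 1 and was lost when congenic array 1, congenic array 2, wild type array 2 or wild type array 3 was left out (limma, adjusted p 0.00947 to 0.177 over the 6 fits). Its paralog Atp6v0e2 differed by -0.03, with overlapping groups. Of the 18 pump genes measured, 12 had a positive difference, Atp6v0e alone passed, and 1 other, Atp6v1a, had an unadjusted p under 0.05 with a difference of 1.12. Atp6v1e1 and Atp6v1g1, subunits of the cytosolic head, differed by 0.06 and 0.03. The median of the 18 was 0.05, and -0.0054 without congenic array 3, when 9 differences were positive.

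Pla2g7, the secreted phospholipase that hydrolyses platelet-activating factor, read 11.83, 11.81 and 12.25 in congenic muscle and 14.04, 14.45 and 14.15 in wild type muscle. The groups were over 1.5 log2 units apart. Pla2g7 fell by 2.25 (95% interval -2.74 to -1.76), a ratio of 4.75 (limma, adjusted p = 0.0124). The call held without congenic array 3 and was lost when any 1 of the other 5 arrays was left out (limma, adjusted p 0.00119 to 0.177 over the 6 fits). Pla2g7 is known to be made by macrophages, whose markers are given with the class II genes. The part of the cell makeup in the Pla2g7 difference was not tested. Of the 6 genes measured for this lipid, the intracellular hydrolases Pafah2 and Pafah1b1 differed by -0.10 and 0.09. Lpcat2, which makes the lipid, differed by 1.11 with an unadjusted p under 0.05 and did not pass. The median of the 6 was 0.18, or 0.07 without congenic array 3.

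The probe numbered 858145 read 8.37, 7.83 and 8.53 in congenic muscle and 13.48, 13.16 and 13.43 in wild type muscle. It fell by 5.11 on the log2 scale, a ratio of 34.6 (limma, adjusted p = 0.000727), and the call held with each array left out in turn. The probe numbered 366579 read 11.53, 11.73 and 11.50 against 14.22, 14.47 and 14.10. It fell by 2.68, a ratio of 6.41 (limma, adjusted p = 0.00194), and was lost only without wild type array 2 among the fits that left out 1 array (adjusted p = 0.0596). Which transcripts these 2 probes read is not known here, and their place in the genome was not used.

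**Figure D1:**
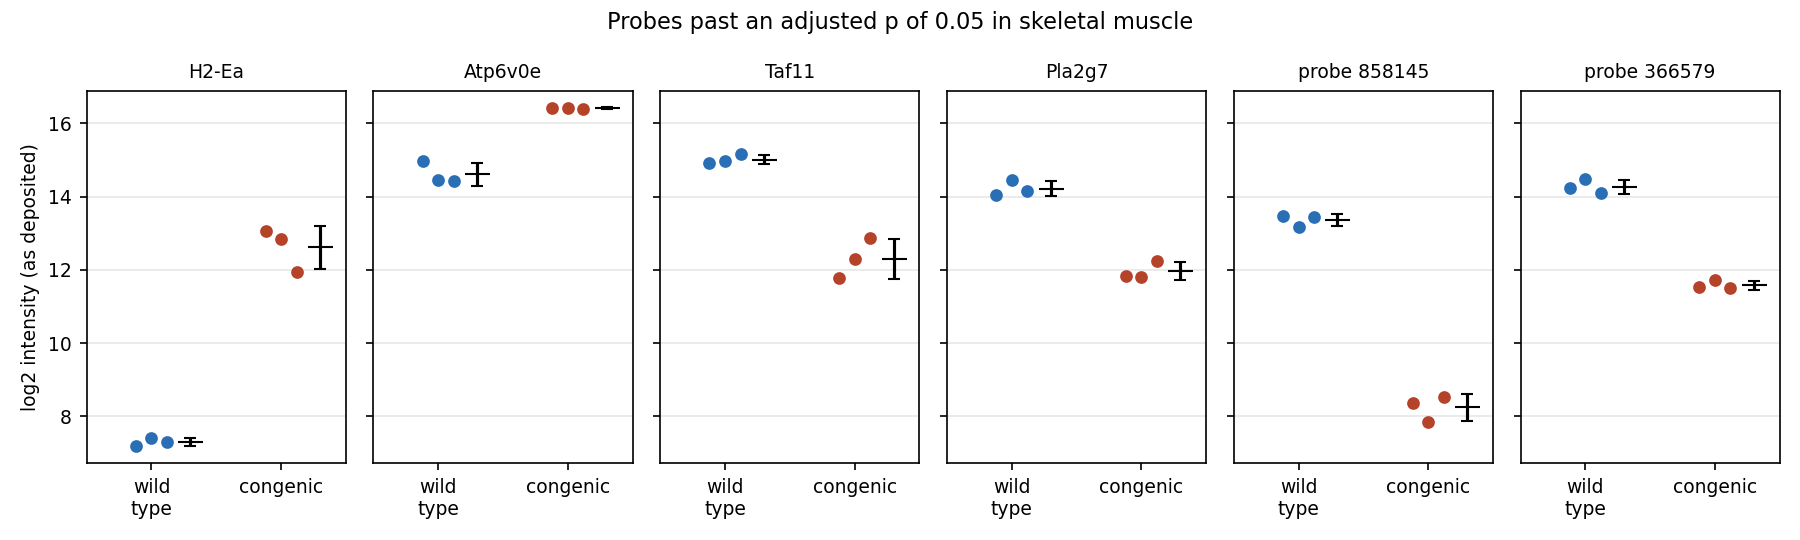
Log2 intensity as deposited on each of the 6 muscle arrays for the 4 genes and 2 unnamed probes with an adjusted p under 0.05. Points are arrays (blue wild type, red congenic) and the black mark is the mean with its SD (n = 3). The strains do not overlap for any of the 6, and the widest separations are those of H2-Ea (5.31 higher) and probe 858145 (a difference of -5.11).

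The genes directly beside Taf11, Atp6v0e and Pla2g7 did not pass and differed by less than 0.5. Next to Taf11, Snrpc differed by 0.35 and Anks1 by -0.23. On either side of Atp6v0e, Ergic1 differed by -0.39 and Crebrf by -0.27. Slc25a27, beside Pla2g7, differed by -0.22, and Mep1a on its other side by 0.47. None of these 6 neighbours had an unadjusted p under 0.05. The gene after Slc25a27 is Cyp39a1, which is described below.

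Chromosome 17 held 28 of the 111 genes with a chromosome whose unadjusted p was under 0.01, which is 4.27% of its 656 genes measured. The same share was 0.63% of the 13178 genes on other chromosomes and 0.802% of all genes with a chromosome. Over the whole chromosome, the strains did not overlap for 112 of the 656 genes (17.1%), against 12.4% of all genes, and the 28 are all among them, as their small p favours. The congenic values were higher for 19 and lower for 9. The median size of the 28 differences was 1.29 log2 units, against 0.28 for all genes, a size that the p threshold itself favours. Without congenic array 3 the count on chromosome 17 was 40, of which 25 were among the 28. The other 5 leave-one-out fits gave 18 to 26, with the lowest count of 18 without wild type array 2 or 3. Beyond the 4 genes above, none of the 28 passed limma's adjusted threshold, with adjusted p between 0.298 and 0.835.

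Of the class I genes among the 28, all 3 read higher in congenic muscle. H2-K1, the classical antigen-presenting molecule, ran from 16.77 to 17.17 in congenic and from 16.06 to 16.66 in wild type muscle, a difference of 0.66. H2-Q7, a class Ib molecule of the Q region, read 15.11, 15.02 and 15.07 against 14.51, 14.43 and 14.21, a difference of 0.68. H2-Q2 differed by 1.15. The partner chain B2m, which lies outside chromosome 17, read 18.04, 17.69 and 17.47 against 17.97, 17.43 and 17.19 and differed by 0.20 with overlapping groups. Of the 18 class I and antigen processing genes measured, 12 differences were positive, against 53.4% of all genes, and none passed limma's test. An unadjusted p under 0.05 was found for 4, against 5.07% of all genes. The median of the 18 was 0.20, or 0.12 without congenic array 3. H2-Q10, a class I gene known for secretion by liver, differed by -2.49, but its wild type values of 14.36, 12.52 and 10.12 overlapped the congenic values of 9.23, 10.40 and 9.90. H2 genes of one class resemble each other and vary between strains, the probe sequences were not used, and the effect of strain variants on hybridisation was not tested for any gene here.

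Cfb, complement factor B of the alternative pathway, lies in the same complex and read 11.00, 11.61 and 11.73 against 10.46, 10.14 and 9.61. Its groups did not overlap and it differed by 1.38. C2, its close relative beside it, differed by -0.23.

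Both mast cell protease genes among the 28 read higher in congenic muscle without passing. Tpsab1, a tryptase, read 10.76, 10.18 and 11.16 against 8.15, 7.76 and 9.01, a difference of 2.39 with groups that did not overlap. RefSeq lists Tpsab1 as a transcribed pseudogene in the B6 reference, as it does H2-Ea. Prss34, a serine protease of the same cluster, read 11.38, 11.00 and 11.57 against 9.94, 9.56 and 8.63, a difference of 1.94. Tpsb2, the tryptase next to Tpsab1, read 14.28, 14.41 and 14.03 against 14.94, 14.73 and 14.60, a difference of -0.51. The mast cell markers outside the cluster were mixed: the chymase Cma1 differed by 0.60 and the carboxypeptidase Cpa3 by 0.64, while the receptor Kit differed by -0.73 (-0.33 without congenic array 3). The summed level of the 6 mast cell markers measured ran from 14.44 to 14.77 in congenic and from 14.83 to 15.17 in wild type arrays. Tpsb2 is 1 of these 6 and makes up most of that sum, so the sum largely repeats its values. The median difference of the 6 was 0.01.

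Radial spoke genes on chromosome 17 differed in sign. Rsph1, a radial spoke protein of motile cilia, read 11.55, 11.84 and 11.83 in congenic muscle and 9.77, 10.24 and 9.91 in wild type muscle. It differed by 1.77 (95% interval 1.11 to 2.42). Rsph9, another radial spoke protein, read 9.26, 9.58 and 9.95 against 8.23, 7.80 and 7.94, a difference of 1.60. Rsph3a, also a radial spoke gene, differed by -1.72 with an unadjusted p of 0.0115, so it is not among the 28, and its groups did not overlap in the opposite direction. Dynlt1b, a light chain of dynein, read 17.11, 16.89 and 17.19 against 16.20, 15.92 and 16.21, a difference of 0.95. Dynlt1b has near-identical copies in the mouse genome, and the probe may not separate them.

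Several of the 28 act in cell signalling, the mitochondrion or lipid handling. Ip6k3, an inositol hexakisphosphate kinase found mainly in muscle and brain, read 10.13, 9.49 and 10.98 against 11.40, 11.48 and 11.98, a difference of -1.42, or -1.81 without congenic array 3. Rhot2, a GTPase of the outer mitochondrial membrane that links mitochondria to transport, read 12.70, 12.39 and 13.10 against 13.64, 13.88 and 13.86, a difference of -1.06. Plin3, a coat protein of lipid droplets, read 14.01, 13.54 and 14.73 against 13.16, 12.95 and 12.93, a difference of 1.08. For each of these the groups were apart, though Plin3 was highest on congenic array 3 and differed by 0.76 without it. Ppp1r11, an inhibitor of protein phosphatase 1, read 15.63, 15.70 and 16.38 against 14.59, 14.38 and 14.70, a difference of 1.35. Its adjusted p of 0.298 by limma was the lowest of the 28 after the genes that passed. Nme3, a nucleoside diphosphate kinase, differed by 0.66 and Psmb1, a subunit of the proteasome core, by 0.68.

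The 9 lower genes included the cytochrome P450 genes Cyp4f39 and Cyp39a1. Cyp4f39, of a family of fatty acid hydroxylases, read 10.53, 9.73 and 10.22 against 11.31, 11.68 and 11.85, a difference of -1.45. Cyp39a1, which hydroxylates oxysterols, read 9.82, 9.28 and 9.49 against 11.02, 10.55 and 10.73, a difference of -1.24. Other P450 genes of the chromosome differed in sign, and none had an unadjusted p under 0.05. Cyp4f13 differed by 0.97 with groups that did not overlap, Cyp4f14 by 0.61, Cyp4f15 by 0.01, Cyp21a1 by 0.64 and Cyp1b1 by -0.31. Rnaset2b, a lysosomal ribonuclease with a near-identical copy nearby, differed by -0.77, and the olfactory receptor gene Olfr131 by -2.15. The congenic values of Olfr131, 7.48, 6.59 and 6.78, are among the lowest on the arrays, where signal cannot be told from background. The remaining members were Thbs2, a matrix protein of the thrombospondin family (1.01), Crip3 (2.03), Fam234a (0.90) and Hcfc1r1 (0.55), all positive. Thbs2 differed by 0.76 and Fam234a by 0.64 without congenic array 3. Wild type values of Crip3 were 7.74, 8.10 and 9.15 and congenic values were 10.50, 9.81 and 10.79.

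**Figure D2:**
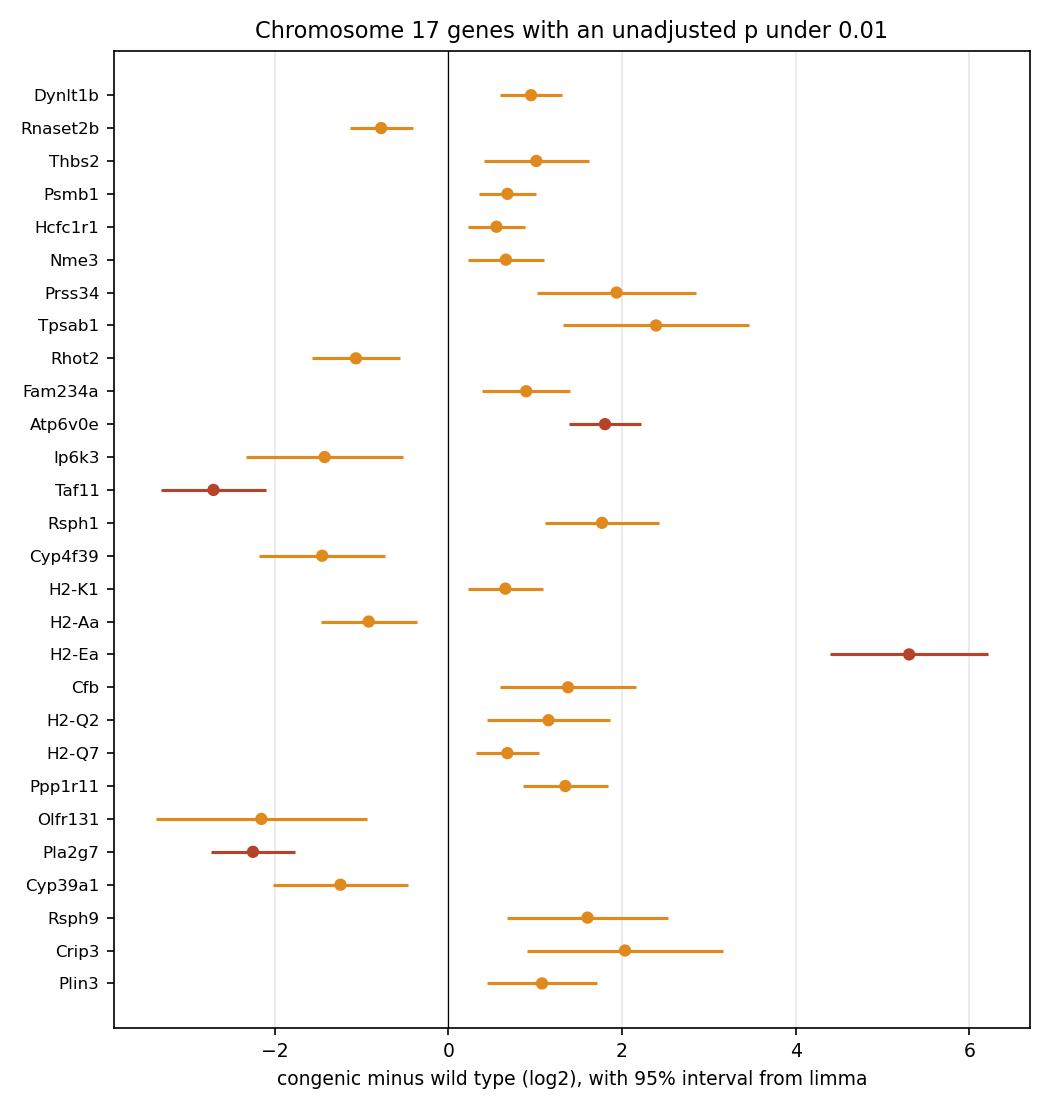
Congenic minus wild type difference in muscle (log2) with its 95% interval from limma for the 28 chromosome 17 genes with an unadjusted p under 0.01, in chromosome order from top to bottom. Red marks the 4 genes with an adjusted p under 0.05 and orange the rest. The 19 positive and 9 negative differences are interspersed along the chromosome, and only H2-Ea lies beyond 3 log2 units.

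In the order of the 655 chromosome 17 genes that could be placed, the 28 ran from place 12 (Dynlt1b) to place 532 (Plin3), and the last but one, Crip3, was at place 450. When the order was divided into 10 blocks of 65 or 66 genes, the first 7 blocks held 4, 1, 8, 2, 4, 3 and 5 of them and the last 3 held 0, 1 and 0. Without congenic array 3 the 10 blocks held 5, 2, 12, 6, 7, 3, 2, 0, 2 and 1 genes with an unadjusted p under 0.01, so the order of the blocks moved with that array. The third block, from Nubp2 to Ppard, held 8 of its 66 genes, Atp6v0e and Taf11 included. In the share with an unadjusted p under 0.05 the same block was highest with 19.7%, and the last block, from Alk to Mettl4, was lowest with 1.54%, against 5.07% of all genes. The eighth block had 9.23% at that threshold, above the second with 3.08%. The order is that of the reference annotation, and these counts do not place the ends of the CAST segment.

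**Figure D3:**
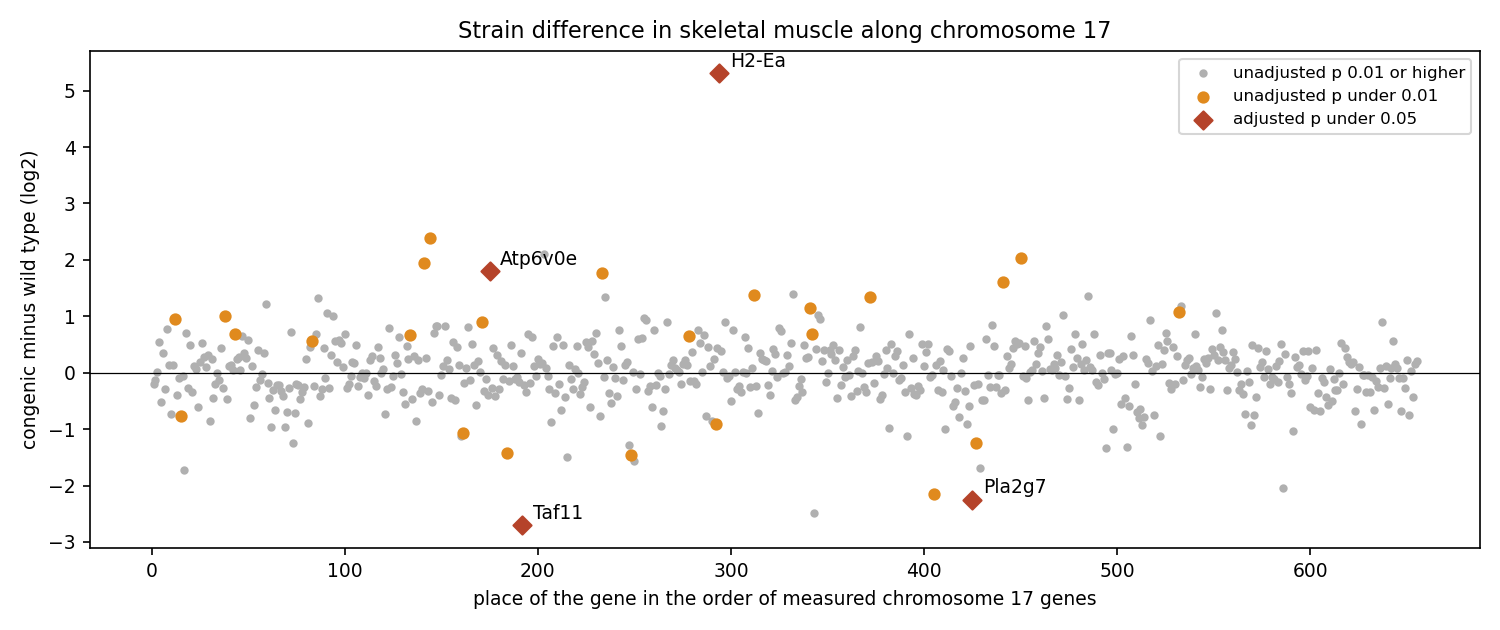
Congenic minus wild type difference in muscle (log2) for the 655 chromosome 17 genes in their order along the chromosome. Grey points have an unadjusted p of 0.01 or higher, orange points lie under 0.01, and red diamonds are the 4 genes with an adjusted p under 0.05. The orange and red points run from place 12 to place 450, with Plin3 at place 532 the only 1 beyond.

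Outside chromosome 17, no gene with a known chromosome passed limma's test. The 10 genes per direction with the smallest p and non-overlapping groups are described by their values, since the rule chose them for their difference. Of the 10 with higher congenic values, 3 are genes of complement activation. C1qa, which encodes a chain of the first complement component, read 16.67, 16.44 and 16.60 against 15.88, 15.33 and 15.52, a difference of 0.99 (limma, adjusted p = 0.465). C1qb read 14.27, 14.37 and 14.46 against 13.73, 13.18 and 13.43, a difference of 0.92. Fcna, a ficolin of macrophages that starts the lectin pathway, read 13.10, 12.61 and 12.68 against 11.80, 11.57 and 11.66, a difference of 1.12. All 3 are genes of macrophages, whose summed marker levels are given with the class II genes.

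The other 7 with higher values were of mixed function. Supt5, a transcription elongation factor, read 14.31, 13.76 and 13.47 against 12.71, 12.03 and 12.47, a difference of 1.44. Pomc, the precursor of melanocortins and beta-endorphin, read 10.72, 11.89 and 10.76 against 9.45, 9.02 and 8.40, a difference of 2.17. The ephrin gene Efna2 differed by 2.04 and Marcksl1, an actin regulator, by 1.74. The matrix genes Ecm1 and Htra1 differed by 0.78 and 0.88, and the olfactory receptor gene Olfr659 by 1.20. Marcksl1 differed by 1.36 and Olfr659 by 0.94 without congenic array 3. For Efna2 the wild type values were 8.14, 8.28 and 8.42, and the congenic values reached 10.66.

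Ppp3cb, the beta isoform of the calcineurin catalytic subunit, had the smallest p of the lower genes. It read 18.28, 18.34 and 17.37 in congenic muscle and 19.07, 19.25 and 19.41 in wild type muscle. The difference was -1.24, and -0.93 without congenic array 3, where it was lowest. Uaca read 15.68, 14.35 and 14.96 against 16.32, 16.10 and 16.12, a difference of -1.18. The endothelial cadherin gene Cdh5 read 8.51, 7.59 and 7.85 against 9.61, 9.45 and 9.45, a difference of -1.52. The endoplasmic reticulum genes Syvn1, a ubiquitin ligase, and Sec61a1, the channel for nascent proteins, differed by -1.70 and -0.97. The last 5, Gnat1 (-1.96), Psapl1 (-2.34), Lmx1a (-1.93), Catsper4 (-1.63) and 4930486L24Rik (-2.20), are best known from other tissues, and the congenic values of all 5 lay below the median of 9.12 over all probes. The congenic values of Cdh5 and of Syvn1 (7.85, 8.12 and 8.90) lay below that median too.

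The 9 fast fibre genes measured had differences from -0.24 to 0.04 with a median of -0.02, none passed limma's test and none had an unadjusted p under 0.05. The median level of these genes was 20.02 to 20.21 on the 6 arrays, near the shared maximum of 21.13, and how far that bounds their differences was not tested. The essential myosin light chain Myl1 read 20.84, 20.71 and 20.93 in congenic muscle and 20.86, 20.93 and 20.56 in wild type muscle. The troponin gene Tnnt3 and the myosin-binding protein gene Mybpc2 differed by -0.24 and -0.21. Slow fibre genes were more variable. Of 10 measured, 3 differences were positive, the median was -0.24, none passed and 1, Mybpc1, had an unadjusted p under 0.05, with 16.25, 16.24 and 16.51 against 16.52, 16.86 and 17.14 (-0.51). The slow troponin gene Tnnc1 read 15.91, 15.45 and 13.86 against 17.11, 15.93 and 14.98, a difference of -0.93 with overlapping groups, or -0.33 without congenic array 3. The median over slow genes ran from -0.28 to 0.14 with 1 array left out, so its sign depends on congenic array 2, without which it was 0.14.

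Of 17 sarcomere genes, 7 differences were positive, the median was -0.10, none passed and only Cmya5 had an unadjusted p under 0.05 (-0.68). Leaving out wild type array 3 turned the median to 0.03, and leaving out congenic array 3 gave -0.12. Titin, the giant spring protein encoded by Ttn, read 20.07, 19.98 and 19.01 against 20.12, 20.37 and 20.15, a difference of -0.53, with the lowest value on congenic array 3, and of -0.19 without that array. The second Ttn probe differed by -0.15. The 11 dystrophin complex genes had a median of 0.21 and none with an unadjusted p under 0.05. That median came to 0.028 with congenic array 3 left out and to 0.016 with wild type array 3 left out. In the 14 genes of calcium handling and excitation-contraction coupling the median was 0.06, none passed and 1, the calcium channel subunit Cacna2d1, had such a p (-0.81, or -0.49 without congenic array 3). Without that array the median was -0.16, with 4 positive differences in place of 8. The calcium pump gene Atp2a1 read 20.15, 20.22 and 19.92 against 20.02, 20.15 and 20.34. It differed by -0.07, and its second probe by -0.48. Neuromuscular junction genes had a median of 0.02 over 10 genes, 0.06 with congenic array 3 left out and -0.07 with wild type array 1 left out, with Lrp4, a receptor for agrin, at 0.61 the only one with an unadjusted p under 0.05.

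The calcineurin and NFAT genes, a pathway that ties nerve activity to slow fibre genes, had 3 positive differences among 9 and a median of -0.43. None passed limma's test. Ppp3cb, given above, was the only one with an unadjusted p under 0.05. Its fellow catalytic isoform Ppp3ca read 15.49, 15.38 and 14.26 against 15.32, 15.75 and 15.54, a difference of -0.49 that was -0.10 without congenic array 3. The list median was -0.22 without that array.

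Glucose and glycogen genes showed no pass in limma's test. In the 13 genes of glucose uptake and insulin signalling, 9 differences were positive and the median was 0.08, against 7 and 0.0034 without congenic array 3. The transporter gene Slc2a4 (GLUT4) read 15.57, 15.55 and 15.70 in congenic muscle and 15.69, 16.18 and 15.98 in wild type muscle, a difference of -0.34 with groups that touched at 15.69 and 15.70. Ptpn1, the phosphatase that dampens the insulin receptor, read 11.46, 11.80 and 12.37 against 11.11, 11.22 and 10.55, a difference of 0.92. It differed by 0.67 without congenic array 3. Ptpn1 was the only gene of the list with an unadjusted p under 0.05. Of 15 glycogen genes, 7 differences were positive with a median of -0.11, and the branching enzyme Gbe1 alone had such a p (-1.15). Gbe1 differed by -0.70 without congenic array 3 and its unadjusted p was 0.114 by limma, and 2 of the 15 were positive, with a median of -0.13. Without wild type array 2 that median was 0.07. Glycogen phosphorylase, Pygm, differed by 0.19. Ppp1r3a, which targets phosphatase 1 to glycogen, read 16.58, 16.42 and 13.58 against 16.49, 16.89 and 16.80, so its difference of -1.20 rests on congenic array 3, without which it was -0.23.

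Glycolysis genes had 5 positive differences among 13, a median of -0.12, and none with an unadjusted p under 0.05. With 1 array left out the median ran from -0.12 to 0.11, and it was positive without congenic array 1, congenic array 2 or wild type array 3. Hexokinase Hk2 read 16.82, 16.74 and 16.25 against 16.87, 17.12 and 17.02, a difference of -0.40, or -0.22 without congenic array 3, and the groups did not overlap. Phosphofructokinase Pfkm differed by -0.37 and the aldolase gene Aldoa by 0.46 (0.27 without congenic array 3). The 8 pyruvate dehydrogenase genes had a median of 0.02, or -0.05 without congenic array 3, and no such p, and the kinase gene Pdk4, which restrains glucose oxidation, differed by 0.07. Of 9 creatine and energy buffering genes, Gamt at 0.47 was the only one with such a p, the median was -0.06 (-0.13 when congenic array 3 was left out, 0.09 when it was congenic array 2), and the creatine kinase genes Ckm and Ckmt2 differed by -0.09 and -0.03.

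The medians of the mitochondrial lists moved with congenic array 3. Among 37 oxidative phosphorylation genes, 19 differences were positive, the median was 0.01 and none passed limma's test. With congenic array 3 left out, 11 of the 37 were positive and the median was -0.08. Ndufs1 and Ndufa5 of complex I, with differences of -0.79 and -0.92, were the 2 with an unadjusted p under 0.05. Ndufa5 read 18.62, 18.70 and 17.45 against 19.38, 18.62 and 19.52, with its lowest value on congenic array 3, and differed by -0.51 without it (unadjusted p = 0.057 by limma). By complex, the 15 genes of complex I had a median of -0.02, 8 cytochrome oxidase genes one of 0.00 and 8 genes of ATP synthase one of 0.05. Of 16 tricarboxylic acid cycle genes, 4 were positive and the median was -0.06, against 2 and -0.18 without congenic array 3. Sdha of succinate dehydrogenase was the only one with such a p (-0.43). The groups did not overlap for 5 of the 16, all with lower congenic values, against 5.07% of all genes. Sucla2 read 17.50, 17.50 and 15.37 against 17.52, 17.83 and 17.80, and its difference of -0.93 was -0.21 without congenic array 3. Citrate synthase, Cs, a usual index of mitochondrial content, read 18.46, 18.47 and 18.82 against 18.41, 18.75 and 18.66 and differed by -0.02.

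In the 19 genes of fatty acid uptake and oxidation, 13 differences were positive, the median was 0.10 and none had an unadjusted p under 0.05. The median turned to -0.11 without congenic array 3, with 8 positive differences and 2 genes at such a p. Fabp3, the fatty acid binding protein of muscle, read 18.55, 17.92 and 18.92 against 17.83, 17.70 and 18.43, a difference of 0.48, or 0.25 without congenic array 3. The regulators of mitochondrial content and exercise response had 9 positive differences among 28 and a median of -0.22, or -0.17 without congenic array 3. None of the 28 passed, and 1, the transcription factor gene Mef2c, had an unadjusted p under 0.05. The groups did not overlap for 7 with lower congenic values, against 5.07% of all genes, and for 2 with higher ones, against 7.34%. Mef2c read 15.26, 15.32 and 13.18 against 15.56, 15.73 and 15.68, and its difference of -1.07 was -0.37 without congenic array 3. Ppargc1a, the coactivator PGC-1alpha, was named after its values were seen and read 13.04, 13.19 and 11.69 against 13.22, 13.22 and 13.19. Its difference was -0.57, and -0.10 without that array. Nrf1, a regulator of respiratory genes, differed by -0.77 (-0.50 without congenic array 3) on the probe used and by 1.41 on its other probe.

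The remaining muscle programmes gave no gene that passed. Growth, atrophy and myogenic regulators had a median of 0.02 over 19 genes, with Igfbp5 (-0.89) the only one with an unadjusted p under 0.05. The circadian clock genes had a median of 0.00 over 15, the immediate early genes of -0.17 over 20, and the heat shock protein genes of -0.10 over 17, and none of these had such a p. These 3 medians were -0.16, -0.02 and -0.12 without congenic array 3, with 3 positive clock genes in place of 8. Oxidative stress defence genes had 15 positive differences among 20, against 53.4% of all genes, and a median of 0.25, or 0.17 without congenic array 3. Of their 4 with an unadjusted p under 0.05, Gpx1 (0.45), Txn2 (0.41) and Mt1 (0.73) were positive and Txn1 (-0.91) was negative. The glutathione peroxidase gene Gpx1 read 15.83, 15.62 and 15.89 against 15.61, 15.13 and 15.24. Over the 409 distinct genes of all pathway lists, 37 had an unadjusted p under 0.05, beside 5.07% of all genes.

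**Figure D4:**
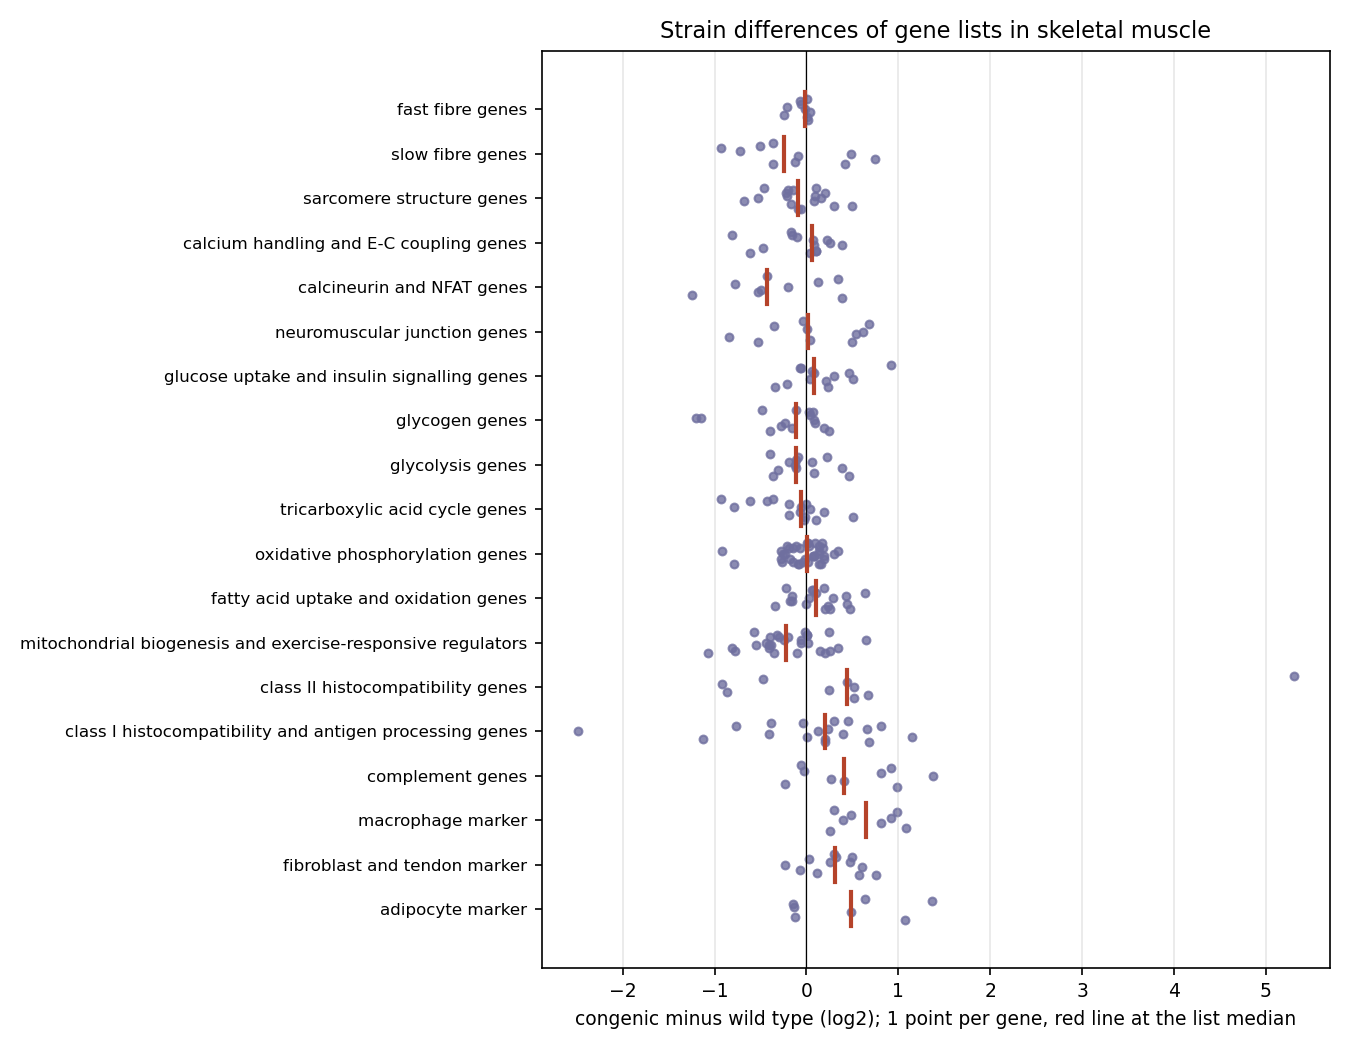
Congenic minus wild type difference in muscle (log2) for each measured gene of 19 lists, with 1 point per gene and a red line at the list median. Contractile and energy lists have medians between -0.43 and 0.10 with all 6 arrays, the macrophage list has the highest median at 0.65, and H2-Ea at 5.31 is the point far to the right.

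Complement genes had a median of 0.41 over 9, with 6 positive differences and 5 genes with an unadjusted p under 0.05, all higher in congenic muscle, against 3.25% of all genes. None passed limma's test. They were C1qa, C1qb, C1qc, Cfb and the inhibitor gene Serping1. C1qc read 15.02, 14.88 and 14.73 against 14.58, 13.71 and 13.89, a difference of 0.82, and Serping1 read 18.14, 18.08 and 18.22 against 17.73, 17.65 and 17.82, a difference of 0.41. Of the 9 measured, 5 had groups that did not overlap with the congenic values higher, against 7.34% of all genes. The 3 C1q genes lie side by side on chromosome 4. Interferon-stimulated genes had a median of 0.20 over 17, and Irf1 at 0.66 was the only one with an unadjusted p under 0.05.

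Macrophage markers beyond C1q had the same sign. Cd14, a receptor for bacterial lipopolysaccharide, read 10.89, 11.41 and 11.22 against 10.31, 9.85 and 10.09, a difference of 1.09. Lyz2, the lysozyme of myeloid cells, read 17.40, 17.34 and 16.84 against 16.90, 16.51 and 16.70, a difference of 0.49 with overlapping groups. The mannose receptor gene Mrc1 differed by 0.40, Cd163 by 0.31 and Adgre1, the F4/80 antigen, by 0.25. Without congenic array 3 the median of the 8 was 0.84, and 7 had an unadjusted p under 0.05. The neutrophil markers differed in sign, with Csf3r at -0.62 and S100a9 at 0.49, and a median of 0.09 over 8. These values were -0.25, 0.21 and -0.07 without congenic array 3.

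Fibroblast and tendon markers had 10 positive differences among 12, against 53.4% of all genes, and a median of 0.31. The collagen genes Col1a1 (0.76), Col6a1 (0.61), Col3a1 (0.47) and Col1a2 (0.50) had an unadjusted p under 0.05. Over all genes, 3.25% had such a p with higher congenic values. Col6a1 differed by 0.36 and Col1a2 by 0.30 without congenic array 3, when the median was 0.23 and 3 genes had such a p. Col1a1 read 15.64, 16.05 and 16.59 in congenic muscle and 15.49, 15.04 and 15.47 in wild type muscle, with the highest value on congenic array 3. Decorin, Dcn, read 20.24, 20.26 and 20.19 against 20.16, 19.99 and 20.21 and differed by 0.11. The summed level of these markers ran from 20.82 to 20.95 in congenic arrays and from 20.47 to 20.75 in wild type arrays.

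The summed level of the adipocyte markers overlapped between the strains. The lipid carrier Fabp4 read 19.39, 18.88 and 17.04 in congenic muscle and 19.47, 18.46 and 17.79 in wild type muscle. Car3, a carbonic anhydrase of fat and slow muscle, read 19.28, 18.62 and 18.32 against 18.08, 17.94 and 16.99, a difference of 1.07, and was the only one of 7 with an unadjusted p under 0.05. It ran, over 7 markers, from 18.85 to 20.35 in congenic arrays and from 18.46 to 19.96 in wild type arrays. All 6 brown adipocyte markers had negative differences, with a median of -0.35 and none with such a p. That median came to -0.16 when wild type array 1 was left out and to -0.59 when it was congenic array 3. Their summed level ran from 12.37 to 13.23 in congenic arrays and from 12.76 to 17.07 in wild type arrays, with 17.07 on wild type array 1.

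Among the other marker lists no gene passed. The erythroid gene Hba-a1 read 17.98, 18.34 and 18.94 against 17.67, 17.32 and 18.12, a difference of 0.72, and the 4 erythroid markers had a median of 0.37. Both were lower without congenic array 3, at 0.45 and 0.12. Endothelial markers had a median of -0.01 over 9, smooth muscle and pericyte markers of 0.14 over 9, satellite cell markers of -0.10 over 6, and nerve and Schwann cell markers of 0.10 over 5. T and NK cell markers had 9 positive differences among 9, against 53.4% of all genes, with a median of 0.18. B cell and plasma cell markers had a median of 0.17 over 7, dendritic cell markers one of 0.51 over 7 and mast cell markers one of 0.01 over 6. Epithelial and skin markers had a median of -0.04 over 8 and neuronal markers one of 0.10 over 8. Without congenic array 3 the median was -0.27 for endothelial, -0.08 for smooth muscle, -0.19 for satellite cell, 0.32 for T and NK cell, -0.04 for B cell, -0.05 for mast cell and 0.17 for neuronal markers, and 7 of the 9 T and NK cell markers were positive. The signs for endothelial, smooth muscle, B cell, mast cell, satellite cell and neuronal markers each turned with 1 or more of the 6 arrays left out. The neuronal median was -0.0425 without wild type array 2, and the nerve and Schwann cell median was -0.0001 without congenic array 2.

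**Figure D5:**
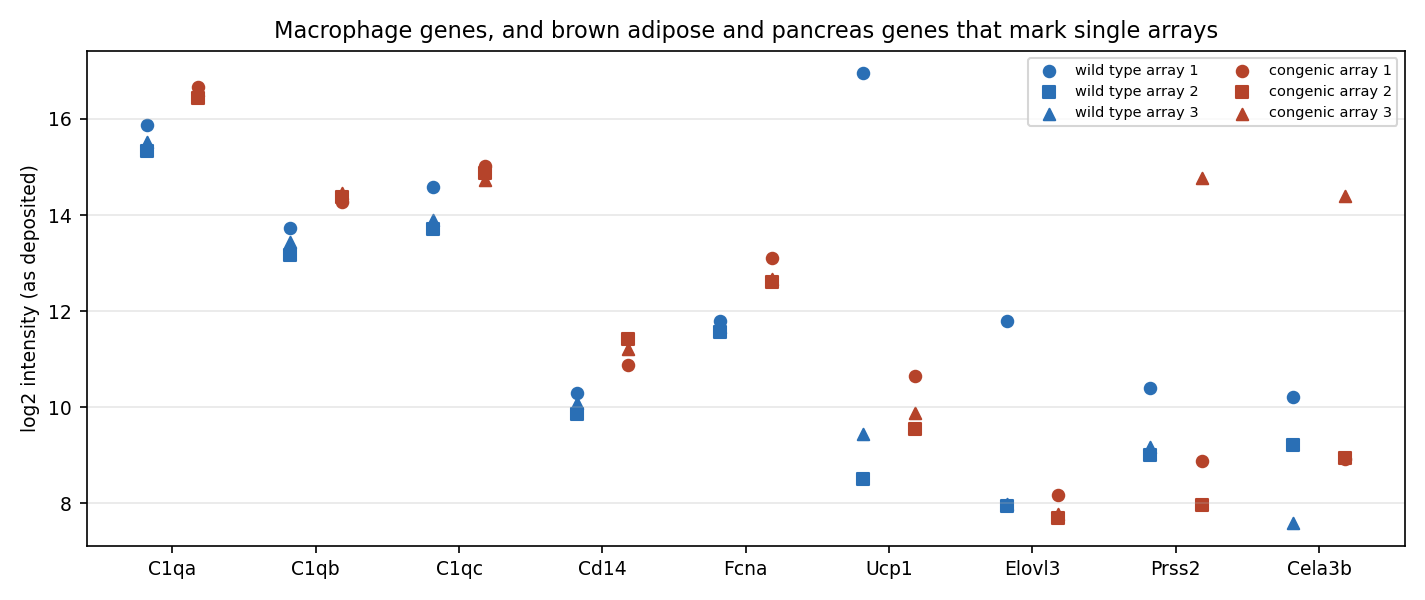
Log2 intensity as deposited on each muscle array for 5 macrophage genes and for 4 genes that read high on a single array, with blue for wild type, red for congenic and the symbol giving the array number. The 5 macrophage genes drawn are ones whose groups do not overlap, so their higher place on all 3 congenic arrays follows from the choice. Of the 8 macrophage markers measured, 4 had such groups, against 7.34% of all genes with higher congenic values. Ucp1 and Elovl3 are high on wild type array 1 (16.95 and 11.79), and Prss2 and Cela3b on congenic array 3 (14.78 and 14.39).

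Congenic and wild type mice were also profiled in hypothalamus, which gives values for the muscle genes in a second tissue. No probe passed a test of the difference between the strain effects of the tissues (0.0% of 33012, limma), with 1198 probes at an unadjusted p under 0.05. Wild type hypothalamus array 1 read far from the other arrays of its group on several of these probes, and without it the counts were 0 and 2224. In hypothalamus Taf11 read 10.71, 11.23 and 11.49 for congenic and 15.12, 14.10 and 13.97 for wild type mice. That is a difference of -3.26, beside -2.70 in muscle. In hypothalamus it did not pass (limma, adjusted p = 0.936, or 0.310 without wild type hypothalamus array 1). Probe 858145 read 8.24, 7.75 and 10.34 against 14.45, 11.82 and 11.88, and did not pass there either (limma, adjusted p = 0.936). H2-Ea read 9.46, 8.83 and 8.85 against 7.34, 8.82 and 8.55, so its strains were only just apart there. Its difference of 0.81 stood 4.50 log2 units below that in muscle (limma, adjusted p = 0.913), or 4.94 units without wild type hypothalamus array 1 (limma, adjusted p = 0.0528).

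Atp6v0e in hypothalamus read 14.05, 13.95 and 12.76 for congenic and 13.84, 13.57 and 13.38 for wild type mice, with overlapping groups and a difference of -0.01. The tissues' strain effects on it differed by 1.81 (limma, adjusted p = 0.913). Pla2g7 read 13.20, 12.84 and 13.39 against 7.66, 15.16 and 14.58, so its difference of 0.68 became -1.73 without the array that read 7.66. Dynlt1b read 15.67, 16.01 and 15.16 against 7.78, 14.29 and 14.02, and Rsph1 read 14.48, 14.23 and 14.27 against 9.06, 12.11 and 11.85, both higher in congenic mice as in muscle. Of the 28 chromosome 17 genes, 19 had the same sign in hypothalamus, or 21 without that array. The share of all genes with the same sign in both tissues was not counted, so these counts have no background beside them. The tissues share no arrays. The titles call the hypothalamus congenics short and the muscle congenics only congenics, so whether both tissues come from 1 line is not stated, and the labels do not say whether they came from the same mice.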

How the data were processed

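RNA from frozen tissue was isolated with TRI-Reagent, cleaned on Qiagen columns and transcribed into digoxigenin-labelled cRNA for chemiluminescent arrays, per the labels' protocols. The authors deposited 1 value per probe and array, taken here as log2 intensities because the values range from 5.63 to 21.13; the base is not stated, so every fold rests on base 2. The sources used here name no background correction, normalization software or platform build. Groups came from the sample titles, since every description, also of wild type samples, names the congenic strain.

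Strain differences (congenic minus wild type) were fitted on the 6 muscle arrays and all 33012 probes by limma's lmFit and eBayes, with the trend option, and Benjamini-Hochberg adjustment at 0.05 (limma 3.58.1, R 4.3.3). The difference between tissues was an interaction contrast over 12 arrays. With 3 arrays a group, an exact permutation test of a single value could not go below 0.1, so none was run, and the number of arrays limits the precision. The fit was tested on simulated data.

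Of the probes, 14411 had 1 gene symbol, 247 several and 18354 none; 14407 matched the RefSeq gene table of GRCm38.p6, used for names, chromosome and gene order. Genes were named if they passed, if they lay on chromosome 17 with an unadjusted p under 0.01, if they were among 10 per direction elsewhere with the smallest p and non-overlapping groups, or if they had the smallest p or highest level in 1 of 28 pathway lists or 17 marker lists. The members and lists were chosen with earlier results of these data known. Genes named outside this rule complete a list, neighbour a gene that passed or were picked after their values were seen. Replicate numbers of the strains were not used to pair the arrays in the main fit. Deviations of arrays with the same number correlated at 0.015 to 0.07, and those of arrays with different numbers at -0.0835 to 0.017. Whether the numbers mark pairs is not known. Alternatives left out each array, added the replicate number as a block, used all 12 arrays, no trend, array weights, cyclic loess, a filter or a floor on dim probes, or the mean of a gene's probes.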

Additional observations from a re-analysis of the deposited data

Results flagged for a closer look

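Among the genes named, 4 had non-overlapping strains in both tissues but in opposite directions. Efna2 differed by 2.04 in muscle and by -0.91 in hypothalamus, a gap of 2.95. Marcksl1 differed by 1.74 and -1.13, a gap of 2.88. Psapl1 differed by -2.34 and 1.16, a gap of -3.50, and Sec61a1 by -0.97 and 1.33, a gap of -2.30. The interaction test passed for none of the 4 (limma, adjusted p = 0.913 for each), and all 4 were picked for their muscle difference. In muscle alone, the groups did not overlap for 12.4% of all genes. The share of all genes apart in both tissues in opposite directions was not counted, so the 4 have no background beside them.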

How the results depend on the processing

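The 6 calls became 2 to 8 with 1 muscle array left out, 1 in the fit of all 12 arrays (H2-Ea), 2 without the mean-variance trend (H2-Ea and probe 858145) and 2 with dim values raised to a floor at the 20th percentile (the 2 unnamed probes). They numbered 6 with cyclic loess, 6 with the 20th percentile filter, 7 with the probes above the median (a smaller set) and 9 with array weights. The replicate number as a block gave 6, the same probes, and 32 chromosome 17 genes at an unadjusted p under 0.01. That count of 28 ran from 18 to 40 with 1 array left out. It was 7 in the fit of all 12 arrays, against 24 genes elsewhere, and 26 with the filter at the median, which was chosen after seeing the data. Of genes in any list, 4 passed, and 1 to 4 with 1 array left out. The cause of these moves was not tested.

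No gene that passed changed sign under any alternative run. Among named genes that did not pass, those whose difference spanned zero with 1 array left out included the following, with the lowest and highest value. Contractile and energy genes were Atp2a1 (-0.15 to 0.016), Myl1 (-0.0705 to 0.12), Acta1 (-0.17 to 0.034), Pygm (-0.0035 to 0.33), Pdk4 (-0.14 to 0.30), Cs (-0.14 to 0.047), Ckm (-0.25 to 0.10) and Ckmt2 (-0.051 to 0.017). Relatives of the genes that passed were Taf13 (-1.06 to 0.045), Atp6v1g1 (-0.013 to 0.094), Atp6v1e1 (-0.062 to 0.17), Atp6v0e2 (-0.17 to 0.13), Pafah1b1 (-0.0205 to 0.20) and Pafah2 (-0.39 to 0.051). Fat genes were Fabp4 (-0.62 to 0.56) and Ucp1 (-3.17 to 1.05), pancreatic genes Prss2 (-1.10 to 2.30) and Cela3b (-0.072 to 2.66), and myeloid or complement genes C2 (-0.54 to 0.14) and Cd163 (-0.14 to 0.80). Array weights turned Ckm to 0.0081, Atp6v1e1 to -0.0049 and Fabp4 to 0.25.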
